A study of Mus musculus with 28 samples.

Results

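Complement, coagulation and inter-alpha-inhibitor genes were followed in the livers of atherosclerosis-prone mice with and without MIF-2. They were 43 genes chosen by symbol, among them 18 complement genes, 20 clotting genes and 5 genes of the inter-alpha-trypsin inhibitor heavy chains and fetuin-A, out of 36072 gene symbols in the count files. All 43 had at least 10 counts per mouse on average and all 43 were among the 9684 genes that passed the filter on low counts and were tested.

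Liver RNA came from 14 female mice on a high-fat diet for 12 weeks. A group of 7 mice carried Apoe-/- alone, and the other 7 were Mif-2-/- Apoe-/- (double knockout). Loss of Apoe, the apolipoprotein through which remnant lipoproteins are cleared, was therefore shared by both groups, mice with functional Apoe were not among them, and the Mif-2 deletion was global, so that it was not limited to hepatocytes. The labels give no age. RNA was read by prime-seq, which counts molecules, marked by an identifier, from sequence close to a transcript's 3' end, and 2 libraries of each mouse were summed. Total counts per mouse were 1336787 to 2715022. The deleted gene, Ddt, which encodes MIF-2, had 84 to 316 counts in Apoe-/- mice and 5 to 12 in double knockout mice (log2 fold change -4.50, edgeR adjusted p = 3.12e-11), so no mouse contradicted its genotype label.

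Hepatocytes make most of the complement and clotting proteins of plasma and secrete them as inactive precursors. Complement is started by antibody (C1), by carbohydrate (the mannose-binding lectins) or by slow turnover of C3, and the routes meet at the cleavage of C3 and C5 and end in the membrane attack complex. Clotting ends in the conversion of fibrinogen to fibrin by thrombin. The heavy chains encoded by Itih1, Itih2 and Itih3 are carried on bikunin and are transferred to hyaluronan. Several of these genes, the fibrinogen chains, C3 and ITIH4 among them, are known as acute-phase genes, whose transcription in hepatocytes is raised by interleukin-6 through STAT3 and C/EBP factors.

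The 5 genes with the largest fitted differences between groups, Itih4, Fgg, Fgb, Itih3 and Fga, lie in 2 clusters. Fgg, Fga and Fgb, which encode the gamma, alpha and beta chains of fibrinogen, are neighbours on chromosome 3 (Fgg 83007724 to 83015049, Fga 83026076 to 83033627, Fgb 83040141 to 83049863, all protein coding, GRCm38). Itih4, Itih3 and Itih1 are neighbours on chromosome 14 (30886476 to 30902353, 30908572 to 30923760 and 30929180 to 30943289). The regulatory sequence is shown in front of the fibrinogen genes and Itih4, and not of Itih3. The bases upstream of the annotated start are printed 5′ to 3′ from RefSeq on GRCm38.p6. Capitals mark matches, on either strand, to the letters TTCNNNGAA (STAT-type), TTGCNNAA (C/EBP-type) and CTGGGAA (an interleukin-6 response element). None of the marked matches share bases. The windows are chr3:83025903-83026075 (plus strand) for Fga, which stops upstream of an earlier GENCODE start, chr3:83049864-83050113 (minus strand) for Fgb, chr3:83007474-83007723 (plus strand) for Fgg and chr14:30886226-30886475 (plus strand) for Itih4.
Fga: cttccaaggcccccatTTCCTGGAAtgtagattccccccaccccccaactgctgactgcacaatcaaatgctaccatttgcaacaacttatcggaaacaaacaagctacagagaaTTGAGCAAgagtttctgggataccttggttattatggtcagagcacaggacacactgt
Fgb: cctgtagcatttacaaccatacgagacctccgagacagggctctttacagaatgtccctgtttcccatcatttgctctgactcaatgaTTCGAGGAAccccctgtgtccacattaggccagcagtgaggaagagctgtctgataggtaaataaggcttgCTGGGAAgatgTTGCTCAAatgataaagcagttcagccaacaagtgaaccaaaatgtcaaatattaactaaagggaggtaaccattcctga
Fgg: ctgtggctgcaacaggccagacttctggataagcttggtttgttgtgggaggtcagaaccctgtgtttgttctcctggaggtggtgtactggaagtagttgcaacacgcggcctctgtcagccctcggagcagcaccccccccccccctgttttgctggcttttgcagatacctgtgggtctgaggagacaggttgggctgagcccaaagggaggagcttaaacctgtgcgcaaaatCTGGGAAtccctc
Itih4: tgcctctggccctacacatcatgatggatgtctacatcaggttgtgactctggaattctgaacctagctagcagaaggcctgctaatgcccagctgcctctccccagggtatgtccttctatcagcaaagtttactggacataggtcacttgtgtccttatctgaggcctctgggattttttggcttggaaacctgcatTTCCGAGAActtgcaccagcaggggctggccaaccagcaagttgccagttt

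Fga held 1 STAT-type match (TTCCTGGAA) and 1 C/EBP-type match (TTGAGCAA), Fgb held TTCGAGGAA, CTGGGAA and TTGCTCAA, Fgg held CTGGGAA and Itih4 held TTCCGAGAA. Of 43 genes, 35 had an entry in the promoter table, and the 250 bases upstream of the start held a C/EBP-type match in 12 of the 35, a STAT-type match in 7 and CTGGGAA in 5. Itih3, which is not printed above, was in none of these counts, as it held no match or had no entry. The same windows of all 32851 promoter entries held them in 9.56%, 7.02% and 9.10%. These shares are per entry, while a gene counted as matched if any of its entries held a match, so the units are not alike. A match is a run of letters, and binding was not measured.

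None of the 43 genes differed between the groups past an adjusted p of 0.05 by the edgeR quasi-likelihood test, where 0.217% of all tested genes did. DESeq2 on the same counts called 3, Itih4, Hc and Fgg, where it called 0.702% of all tested genes. The lowest adjusted p among the 43 was 0.124, for Hc and for Fgg. The fitted differences nevertheless pointed one way. The log2 fold change of double knockout over Apoe-/- was positive for 41 of 43 genes (51.5% of all tested genes), the exceptions being C6 and F11. At an unadjusted p below 0.05, 21 of the 43 were higher in double knockout mice (7.37% of all tested genes) and 0 were lower (5.49%). These 21 were 9 of 18 complement genes, 9 of 20 clotting genes and 3 of 5 Itih and Ahsg genes. The median log2 fold change was 0.33 in complement genes, 0.34 in clotting genes and 0.51 in Itih and Ahsg genes, beside 0.01 over all tested genes. In 0 of the 43 genes were the groups free of overlap (0.279% of all tested genes).

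Double knockout mice 4 and 6 stood apart from the other 12 mice. Both lay above each of the others in 27 of the 43 genes, 9 of the complement genes, 15 of the clotting genes and 3 of the Itih and Ahsg genes, where 4.44% of all tested genes showed this. The pair was picked after its values were seen. Mouse 4 was the highest of all mice in 21 genes and mouse 6 in 9. Relative to the Apoe-/- mean, mouse 4 had at least 2 times the level in 13 genes, mouse 6 in 13 and both in 12. The other 5 double knockout mice reached that ratio in 0 or 1 genes each. Together the 43 genes held 4.61% of all counts in mouse 4 and 3.72% in mouse 6, and 1.31 to 2.35% in the other 12 mice. These are shares of raw totals, which also vary with abundant tags. A single symbol, CT010467.1, held 10.8% of counts in mouse 4, 19.4% in mouse 6 and up to 36.8% in the others (Apoe-/- mouse 7). Double knockout mouse 3 was above the Apoe-/- mean in 9 of 43 genes, and the other double knockout mice in 26 to 41.

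**Figure D1:**
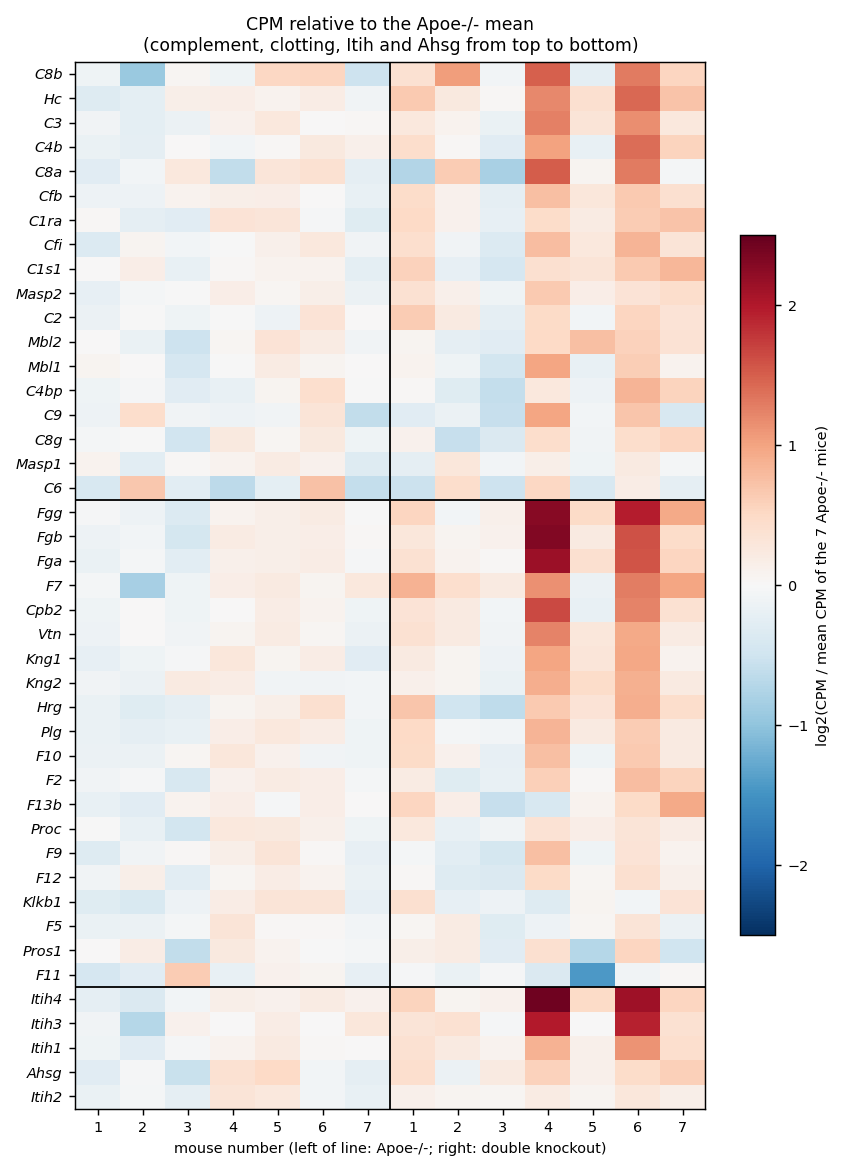
Levels of the 43 genes (rows, by role and fold change) in each of 14 mice (columns), as log2 of CPM over the mean CPM of the 7 Apoe-/- mice. Red is above and blue below that mean. The columns of double knockout mice 4 and 6 are the reddest, with median ratios of 1.68 and 1.58 over the 43 genes.

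Without these 2 mice, 0 of the 43 genes passed the adjusted threshold (0.197% of 10133 genes tested). At an unadjusted p below 0.05, 4 were higher, Hc, Fgg, F7 and Itih4 (5.51% of genes tested), and 0 were lower (4.13%). Positive log2 fold changes then numbered 31 of 43 (51.5% of genes tested). The medians were 0.16 for complement genes, 0.14 for clotting genes and 0.26 for Itih and Ahsg genes.

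Genes that the liver raises in an acute-phase response moved with the same 2 mice. Saa1, which encodes serum amyloid A, had 19689 CPM in mouse 4, 6860 CPM in mouse 6 and 224 to 691 CPM in the other 12. CPM are counts divided by TMM-scaled totals, times 1000000. The sum of Saa1, Saa2, Orm1, Orm2, Hp and Lcn2 was 77944 CPM in mouse 4 and 28710 CPM in mouse 6, against 5033 to 6687 CPM in Apoe-/- mice. By edgeR 0 of these 6 were called and 5 had an unadjusted p below 0.05. Relations of the 43 genes with the mean of these 6 were therefore tested within the 12 remaining mice. There 0 of 43 passed (permutation test, lowest adjusted p = 0.337), 4 had an unadjusted p below 0.05, 38 were positive and the median r was 0.20. Without the 2 of these mice farthest from the median of that mean, r moved both ways and was not tested. It went from 0.05 to 0.66 in Fga, 0.14 to 0.68 in Fgb and 0.13 to 0.65 in C3. In F11 it went from 0.45 to -0.52 and in C9 from -0.01 to -0.44. Over the 7 Apoe-/- mice 0 passed an exact permutation test and 22 were positive. These relations were computed for the 43 genes alone, so no share over all tested genes stands beside the counts.

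Markers of other cells were checked in the same mice. The 8 Kupffer cell and macrophage markers summed to 644 to 892 CPM in Apoe-/- mice and 566 to 1231 CPM in double knockout mice, with mice 4 and 6 at 1231 and 1221 CPM. Of these markers 4 had an unadjusted p below 0.05, all higher, and 1, Timd4, was called. The 7 hepatocyte markers analysed summed to 37772 to 57586 CPM and 38817 to 63582 CPM, with mice 4 and 6 inside the Apoe-/- range at 40829 and 40998 CPM. Single markers did not all follow the sum. Mouse 4 was below the Apoe-/- range in Alb (13934 CPM against 16597 to 27871 CPM) and above it in Apoa2 and Cps1. Mouse 6 was below it in Cyp3a11. Of the hepatocyte markers 0 were called and 1, Cps1, had an unadjusted p below 0.05 (log2 fold change 0.76). Sums over platelet markers were at most 11.6 CPM in Apoe-/- mice, 11.0 CPM in mouse 4 and 32.9 CPM in mouse 6. The ranges of the endothelial (6), stellate cell (6), cholangiocyte (5) and lymphocyte (5) marker sums overlapped between groups. Of the endothelial markers 0 were called, and at an unadjusted p below 0.05 2 were higher, Clec4g (0.71) and Fcgr2b (0.48), and 1 was lower, Lyve1 (-0.47). Of the other 3 lists 0 had an unadjusted p below 0.05 among 5, 2 and 1 tested, and no marker was at 0 in all mice. The 4 muscle markers summed to 3510 CPM in double knockout mouse 3 and to 8.53 to 26.9 CPM in the other 13 mice. Without mouse 3, edgeR called 0 of the 43 genes, beside 29 of all 9797 genes tested. At an unadjusted p below 0.05, 26 of the 43 were then higher, beside 811 of all genes tested. The mitochondrial share of counts was 8.82% in mouse 4, the lowest of all mice (11.6 to 21.5% in the others). The part of these differences in the results was not tested, and in whole liver fewer cells of a type and less RNA per cell cannot be told apart. Both libraries of mouse 4 gave like values, 4491 and 4666 CPM for Itih4 on library totals, as did those of mouse 6 (3466 and 3203 CPM).

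**Figure D2:**
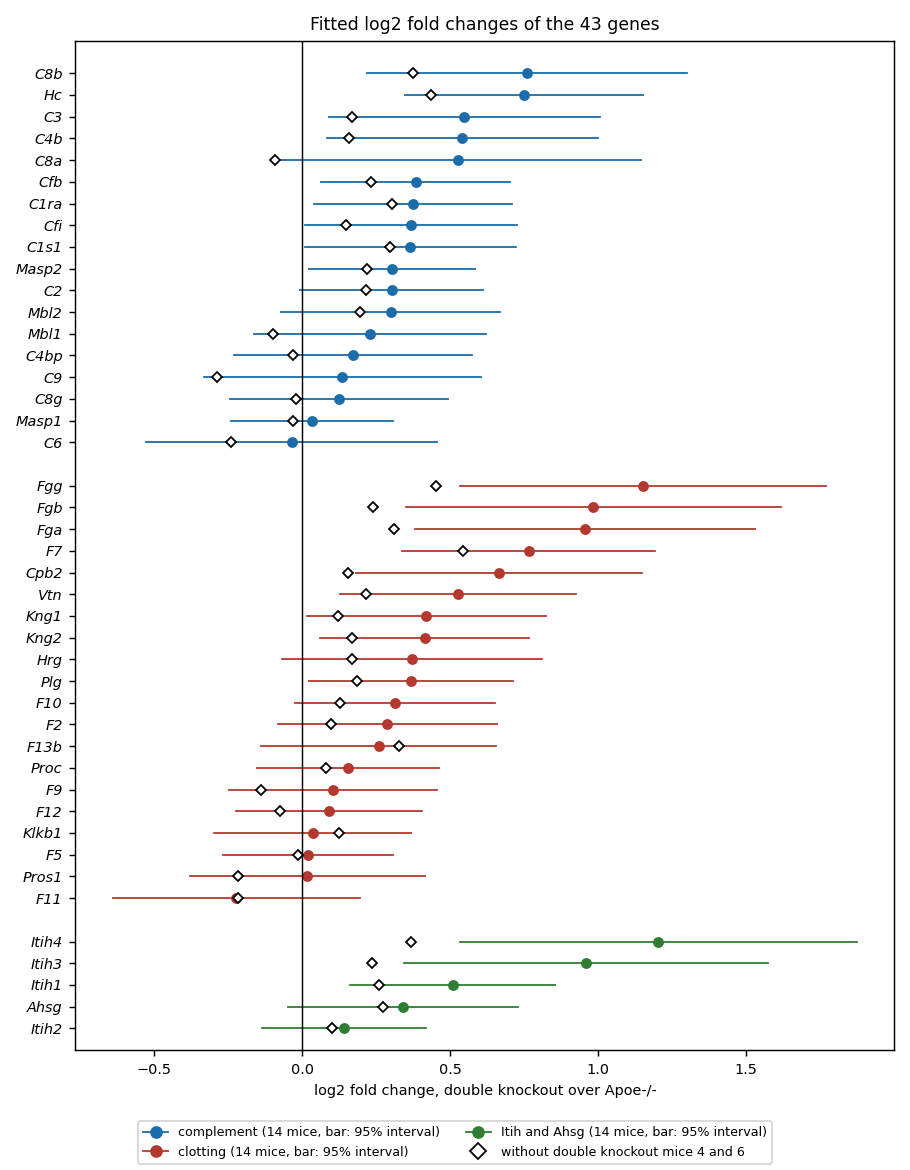
Fitted log2 fold change of double knockout over Apoe-/- for the 43 genes by role, from 14 mice with the 95% interval (filled circles and bars) and without double knockout mice 4 and 6 (open diamonds). Filled circles lie right of 0 for 41 genes and open diamonds for 31, and the widest gap between them is at Itih4, 1.20 against 0.37.

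Complement genes were read in the order of the cascade. Of the proteases and lectins that start it, C1ra and C1s1, which encode the proteases of the C1 complex, had similar differences. C1ra lay between 91.4 and 144 CPM in Apoe-/- mice (median 111) and between 97.9 and 185 CPM in double knockout mice (median 155). C1s1 lay between 113 and 150.4 CPM (median 136) and between 99.9 and 236 CPM (median 177). The groups overlapped in both genes, and the highest level of each was in double knockout mouse 7, not in mice 4 or 6. Their log2 fold changes were 0.37 (SE 0.16; edgeR adjusted p = 0.323) and 0.37 (SE 0.17; adjusted p = 0.375), and both were 0.30 without mice 4 and 6. Masp2, the protease that lectins activate, had 76.3 to 98.5 CPM (median 87.9) and 81.6 to 138 CPM (median 113). Of the double knockout mice 5 of 7 lay above every Apoe-/- mouse, and the fitted log2 difference was 0.30 (SE 0.14; adjusted p = 0.340). Masp1, a related lectin-pathway protease, had a log2 fold change of 0.03 with a 95% interval of -0.24 to 0.31. Mbl2 and Mbl1, the mannose-binding lectins, had 233 to 419 CPM against 274 to 561 CPM and 106 to 161 CPM against 102 to 279 CPM. Their log2 fold changes were 0.30 and 0.23, and Mbl1 was -0.10 without mice 4 and 6.

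C3, the protein at which all routes meet, had 2912 to 4177 CPM in Apoe-/- mice (median 3498) and 3095 to 8250 CPM in double knockout mice (median 4149). Mice 4 and 6 were at 8250 and 7788 CPM. The other 5 double knockout mice were at 3095 to 4297 CPM, within the Apoe-/- range but for mouse 5 (4297 CPM), which was above it. The log2 fold change of C3 was 0.55 (SE 0.22; adjusted p = 0.289) and 0.17 without these 2 mice. C4b, which forms the classical and lectin convertase, had 447 to 619 CPM (median 531) and 432 to 1377 CPM (median 714). Here mouse 6 was the highest and mouse 4 had 1054 CPM, and 1 double knockout mouse was below every Apoe-/- mouse. The log2 fold change of C4b was 0.54 (SE 0.22; adjusted p = 0.297) and 0.16 without both mice, and tags of its near copy C4a may be counted with it. Cfb, the protease of the alternative route, had 266 to 338 CPM (median 306) and 258 to 512 CPM (median 399). In Cfb 5 of 7 double knockout mice lay above every Apoe-/- mouse and 1 below, and the fitted log2 difference was 0.38 (SE 0.15; adjusted p = 0.289). C2, the classical convertase protease, had 30.0 to 42.2 CPM and 28.4 to 51.6 CPM, a log2 fold change of 0.30 (95% interval -0.01 to 0.61). C2 and Cfb overlap a read-through gene on the same strand, Gm20547.

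Hc, which encodes C5, had the most separated groups of the complement genes. It lay between 149 and 213 CPM in Apoe-/- mice (median 197) and between 192 and 507 CPM in double knockout mice (median 293). Mouse 3, at 192 CPM, was the single double knockout mouse within the Apoe-/- range, and the other 6 were above it. The log2 fold change of Hc was 0.75 (SE 0.19; adjusted p = 0.124), and 0.43 (SE 0.16; adjusted p = 0.399) without mice 4 and 6. An antisense gene, Gm13449, overlaps Hc, and whether the counting used strand is not given in the sources used here.

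Of the 5 genes of the membrane attack complex after C5, C8b was the 1 with an unadjusted p below 0.05, and differences between these genes were not tested. In all 5, mice 4 and 6 were above the Apoe-/- mean. C8b, the beta chain of C8, had 21.6 to 59.0 CPM in Apoe-/- mice (median 38.2) and 34.3 to 116 CPM in double knockout mice (median 59.0). Its neighbour C8a had 60.3 to 121 CPM (median 88.4) and 53.2 to 267 CPM (median 97.4). Mice 4 and 6 were the 2 highest mice in both genes, at 2.83 and 2.47 times the Apoe-/- mean in C8b and 2.87 and 2.46 times in C8a. The log2 fold change of C8b was 0.76 (SE 0.26; adjusted p = 0.224) and 0.38 without them. That of C8a was 0.52 (SE 0.30; adjusted p = 0.448) and -0.09 without them. C8g, the third chain of C8, was at 176 to 291 CPM and 164 to 355 CPM, with a log2 fold change of 0.12 (95% interval -0.24 to 0.49). C9, which forms the pore, had a log2 fold change of 0.14 that was -0.29 without mice 4 and 6, where it was 1.97 and 1.62 times the Apoe-/- mean. C6, another component of the pore, had 23.8 to 61.8 CPM and 25.8 to 53.3 CPM, a log2 fold change of -0.04 (95% interval -0.53 to 0.46). Among inhibitors, Cfi, the protease that degrades C3b and C4b, had 171 to 261 CPM (median 217) and 171 to 393 CPM (median 272). On the log2 scale the difference was 0.37 (SE 0.17; adjusted p = 0.376), and 0.15 without mice 4 and 6. C4bp, a cofactor of that cleavage, had 201 to 330.0 CPM and 161 to 444 CPM, and the fitted log2 difference was 0.17 (SE 0.19; adjusted p = 0.721).

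The fibrinogen chain genes had the largest differences of the clotting genes. Fga lay between 476 and 648 CPM in Apoe-/- mice (median 562) and between 587 and 2522 CPM in double knockout mice (median 760.0). Fgb lay between 806 and 1267 CPM (median 1111) and between 1142 and 5414 CPM (median 1329). Fgg lay between 436 and 638 CPM (median 545) and between 527 and 2666 CPM (median 800.4). In all 3 genes mouse 4 was the highest mouse and mouse 6 the second, and 5 of 7 double knockout mice were above every Apoe-/- mouse. Mouse 4 had 4.40, 4.94 and 4.83 times the Apoe-/- mean of Fga, Fgb and Fgg, and mouse 6 had 2.98, 3.02 and 3.90 times. The log2 fold changes were 0.95 (SE 0.28; adjusted p = 0.147), 0.98 (SE 0.31; adjusted p = 0.183) and 1.15 (SE 0.30; adjusted p = 0.124). Without mice 4 and 6 they were 0.31, 0.24 and 0.45. Fgg overlaps a non-coding gene on the other strand, Gm30097.

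**Figure D3:**
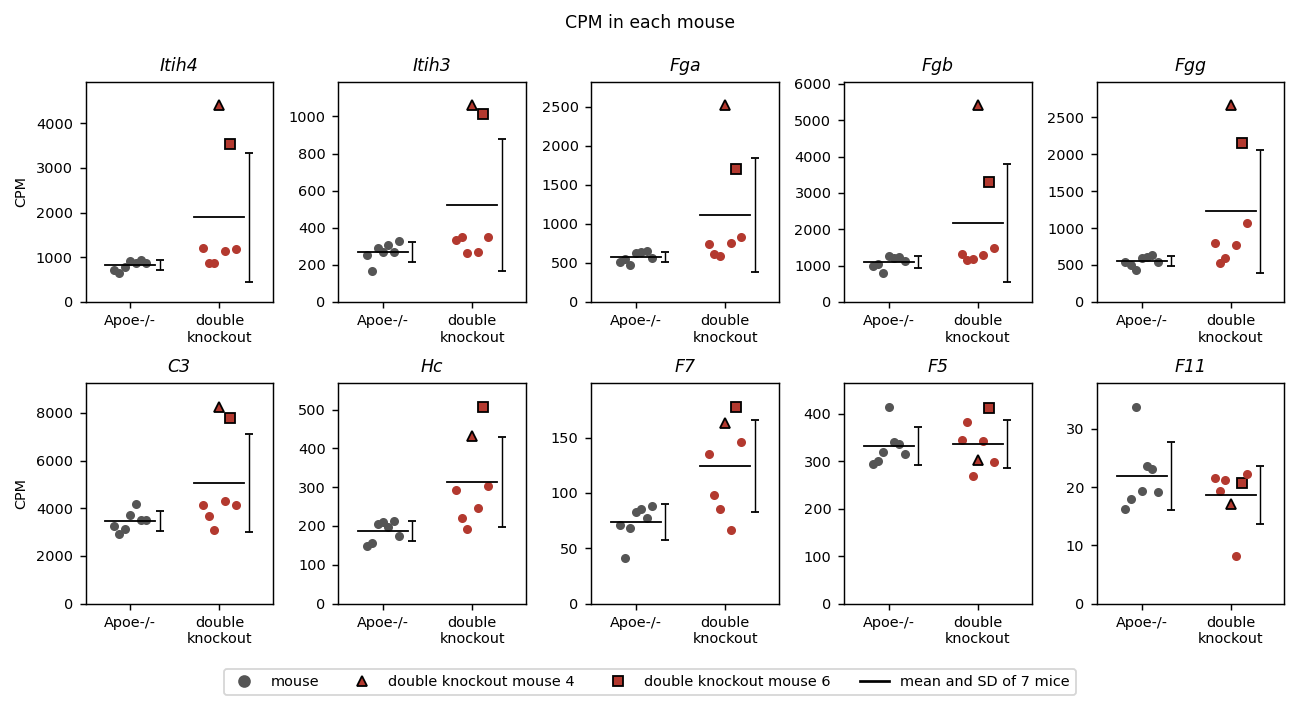
CPM of 10 genes in each of 7 Apoe-/- and 7 double knockout mice, with the mean (line) and SD (bar) of each group on a linear axis from 0. Triangles and squares mark double knockout mice 4 and 6. In Itih4, Itih3, Fga, Fgb, Fgg, C3, Hc and F7 both marked mice lie above all 12 others. With them, 5 double knockout mice lie above every Apoe-/- mouse in Itih4, Itih3, Fga, Fgb, Fgg and F7, 3 in C3 and 6 in Hc. In F5 and F11 the marked mice lie among the others.

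The 3 fibrinogen chains, which are assembled in equal number into 1 protein, were correlated with each other from mouse to mouse. As mice 4 and 6 form a cluster of their own, relations were taken over the 12 others. Between Fga and Fgb Pearson's r was 0.93 and Spearman's rho 0.97 (n = 12; permutation p = 1e-05 for each, the smallest that 100000 resamples give, adjusted p = 3e-05). Between Fga and Fgg r was 0.94 (permutation p = 2e-05, adjusted p = 3e-05) and rho 0.92 (permutation p = 0.00011). Between Fgb and Fgg r was 0.88 (permutation p = 0.00024, adjusted p = 0.00024) and rho 0.92 (permutation p = 0.0001). Without the 2 mice farthest from the median, r was 0.92, 0.90 and 0.82. Other genes had as high an r with Fga. By r with Fga over the 12 mice, Fgg ranked 2 and Fgb 5 among 9683 genes, and over the 7 Apoe-/- mice Fgb ranked 10 and Fgg 42. Within the 7 Apoe-/- mice alone r was 0.96, 0.92 and 0.93 (exact permutation p = 0.000794, 0.00258 and 0.00417, adjusted p = 0.00238, 0.00387 and 0.00417), with rho of 0.89, 0.96 and 0.86. The points of such a relation share a library, so the first gene was also read in one library of each mouse and the second in the other. This gave r = 0.90, 0.88 and 0.87. The count of Fgb tags over Fga tags was 1.69 to 2.15 across the 14 mice, 2.15 in mouse 4 and 1.93 in mouse 6. Fgg tags over Fga tags were 0.862 to 1.28, and the 2 highest ratios were in double knockout mice 7 and 6 (1.28 and 1.26).

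**Figure D4:**
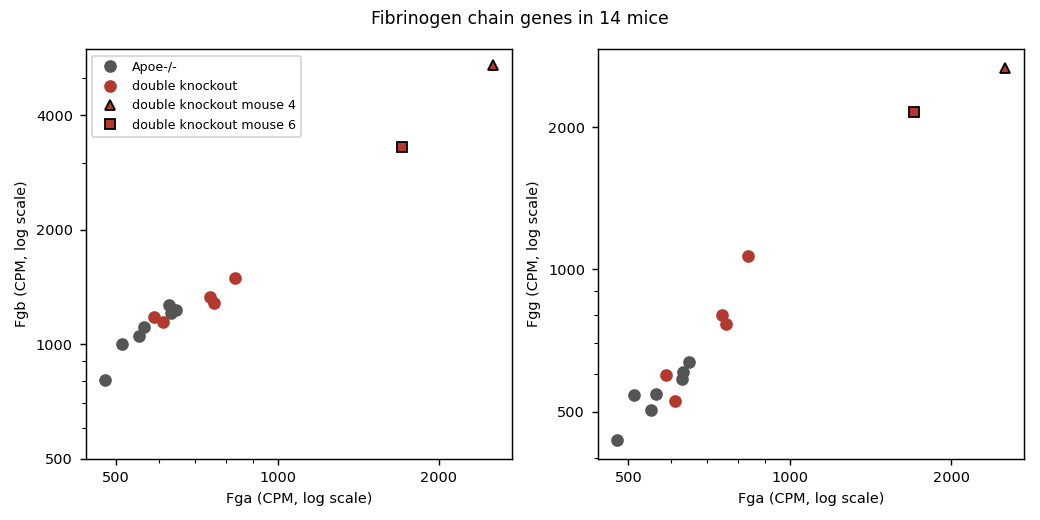
Fgb (left) and Fgg (right) against Fga in CPM on log axes, 1 point per mouse, with Apoe-/- mice in grey and double knockout mice in red. The points of the 12 mice other than double knockout mice 4 and 6 (triangle, square) lie along a line, with r = 0.93 and 0.94 on log2 CPM, and the 2 marked mice lie further up the same direction.

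Of the clotting factors and their zymogens, F7, the protease that tissue factor binds at the start of clotting, differed most. F7 lay between 41.4 and 88.3 CPM in Apoe-/- mice (median 77.6) and between 66.8 and 178 CPM in double knockout mice (median 135). Of the double knockout mice 5 were above every Apoe-/- mouse, mice 1, 2 and 7 (135, 98.0 and 146 CPM) as well as mice 4 and 6 (163 and 178 CPM). The fitted log2 difference was 0.76 (SE 0.21; adjusted p = 0.143), and 0.54 (SE 0.20; adjusted p = 0.403) without mice 4 and 6, the largest of the 43 genes in that fit. F10, its neighbour on chromosome 8 and the protease that F7 activates, had 316 to 429 CPM and 306 to 587 CPM, a log2 fold change of 0.31 (95% interval -0.03 to 0.65). F2, or prothrombin, had 537 to 822 CPM and 572 to 1210 CPM, a log2 fold change of 0.29 (95% interval -0.08 to 0.66).

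For 6 further factors the 95% interval of the difference included 0 and did not reach a doubling. F5, the cofactor in the prothrombinase complex, had 294 to 415 CPM in Apoe-/- mice and 269.7 to 412 CPM in double knockout mice. Fitted over all mice, the log2 difference was 0.02 (95% interval -0.27 to 0.31), and mice 4 and 6 were at 0.91 and 1.24 times the Apoe-/- mean. F9, F12 and F13b had log2 fold changes of 0.10, 0.09 and 0.26 (95% intervals -0.25 to 0.45, -0.22 to 0.40 and -0.14 to 0.65). Mice 4 and 6 were the 2 highest of all mice in F9, a protease that activates F10, at 1.68 and 1.27 times the Apoe-/- mean, and in F12, the contact factor, at 1.40 and 1.32 times. In F13b, the carrier subunit of factor XIII, 3 double knockout mice were above and 2 below every Apoe-/- mouse (46.1 to 132 CPM against 56.0 to 77.4 CPM). Klkb1, plasma prekallikrein of the contact system, had 117 to 189.6 CPM and 121 to 202 CPM, a log2 fold change of 0.03 (95% interval -0.30 to 0.37). Klkb1 overlaps another protein-coding gene on the same strand, Gm45753. F11, a contact-activated protease, had 16.3 to 33.8 CPM and 8.12 to 22.2 CPM, a log2 fold change of -0.22 (95% interval -0.64 to 0.20). Klkb1 and F11, neighbours on chromosome 8, were the 2 genes in which both mouse 4 and mouse 6 were below the Apoe-/- mean. F11 was also the gene with the lowest count, 13 in double knockout mouse 5 (exact Poisson 95% interval 6.92 to 22.2, counting error only).

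Kng1 and Kng2, the paired mouse genes for kininogen, had 1256 to 1857 CPM (median 1494) against 1400 to 3024 CPM (median 1774), and 246 to 319 CPM (median 256) against 241 to 509 CPM (median 319). In both, mice 4 and 6 were nearly level with each other and above all 12 others. The log2 fold changes were 0.42 (SE 0.19; adjusted p = 0.367) and 0.41 (SE 0.17; adjusted p = 0.302), 0.12 and 0.17 without these mice, and the split of tags between the 2 similar genes is uncertain. Plg, plasminogen, had 434 to 604 CPM (median 468) and 483 to 914 CPM (median 588). On the log2 scale the difference was 0.37 (SE 0.17; adjusted p = 0.351), and 0.19 without mice 4 and 6. Cpb2, the carboxypeptidase that slows fibrin lysis, lay between 113 and 139 CPM (median 123) and between 107 and 385 CPM (median 154). Cpb2 was 3.14 and 2.36 times the Apoe-/- mean in mice 4 and 6, and 107 to 159 CPM in the other 5 double knockout mice. The fitted log2 difference was 0.66 (SE 0.23; adjusted p = 0.237), and 0.16 without mice 4 and 6.

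Vtn, or vitronectin, a plasma protein that binds plasminogen activator inhibitor and complement, had 1040 to 1339 CPM (median 1160) and 1088 to 2715 CPM (median 1399). Of the double knockout mice 5 were above every Apoe-/- mouse, and the log2 fold change was 0.52 (SE 0.19; adjusted p = 0.247), 0.21 without mice 4 and 6. Hrg, histidine-rich glycoprotein, had 359 to 584 CPM and 285 to 832 CPM, a log2 fold change of 0.37 (95% interval -0.07 to 0.81), with 2 double knockout mice below every Apoe-/- mouse. The anticoagulant genes Proc and Pros1, which encode protein C and its cofactor protein S, had log2 fold changes of 0.16 (95% interval -0.15 to 0.46) and 0.02 (-0.38 to 0.41).

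Itih4 had the largest log2 fold change of the 43 genes. It lay between 643 and 942 CPM in Apoe-/- mice (median 880.3) and between 864 and 4406 CPM in double knockout mice (median 1191). Mice 4 and 6 had 5.36 and 4.32 times the Apoe-/- mean, and 3 further double knockout mice (1137 to 1204 CPM) also lay above every Apoe-/- mouse. Fitted over all mice, the log2 difference was 1.20 (SE 0.32; adjusted p = 0.143), and 0.37 (SE 0.16; adjusted p = 0.467) without mice 4 and 6. Itih3, which encodes a heavy chain of pre-alpha-inhibitor, lay between 165 and 329 CPM (median 271) and between 265 and 1061 CPM (median 351). Mice 4 and 6 were at 1061 and 1014 CPM, and the other 5 double knockout mice at 265 to 352 CPM. The log2 fold change of Itih3 was 0.96 (SE 0.30; adjusted p = 0.183) and 0.23 without mice 4 and 6.

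The other heavy chain genes differed less. Itih1 had 156 to 222 CPM (median 192) and 202 to 413 CPM (median 248), with all 7 double knockout mice above the Apoe-/- mean and 5 above every Apoe-/- mouse. On the log2 scale the difference was 0.51 (SE 0.17; adjusted p = 0.201), and 0.26 without mice 4 and 6. Itih2, whose product joins that of Itih1 in inter-alpha-inhibitor, had 252 to 371 CPM and 307 to 359 CPM. All 7 double knockout mice were above the Apoe-/- mean of Itih2 and none above its highest Apoe-/- mouse, and the log2 fold change was 0.14 (95% interval -0.14 to 0.42). Mice 4 and 6 were at 1.15 and 1.21 times that mean. Ahsg, fetuin-A, an inhibitor of calcification whose plasma level falls in acute-phase responses in humans, had 1338 to 2763 CPM (median 1875) and 1779 to 2986 CPM (median 2634). Its highest mouse was double knockout mouse 7, and its log2 fold change was 0.34 (95% interval -0.05 to 0.73), 0.27 without mice 4 and 6.

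Other genes of the same pathways were read beside the same shares of all tested genes, 0.217% called and 7.37% higher at an unadjusted p below 0.05. Of 33 other complement genes 23 were tested, 0 were called by edgeR, 5 had an unadjusted p below 0.05, all higher, and the median log2 fold change was 0.30. For Serping1, the C1 inhibitor, the fitted log2 difference was 0.78 (SE 0.29; adjusted p = 0.254), and 0.18 without mice 4 and 6. C1qa, C1qb and C1qc, chains of the recognition protein C1q that macrophages make, had fitted differences of 0.02, 0.21 and 0.24 on the log2 scale, and of -0.22, -0.31 and -0.25 without mice 4 and 6. Of 27 other clotting genes 17 were tested, 0 were called, 4 had an unadjusted p below 0.05, all higher, and the median was 0.28. Fgl1, a fibrinogen-like gene of hepatocytes, had the largest log2 fold change of these, 1.02 (SE 0.32; adjusted p = 0.183), and 0.23 without mice 4 and 6. Of 5 other Itih genes and partners 3 were tested and 0 called. Ambp, which encodes bikunin, had 1003 to 1434 CPM and 1025 to 4185 CPM, and the fitted log2 difference was 0.69 (SE 0.26; adjusted p = 0.263), and 0.14 without mice 4 and 6. Fetub, fetuin-B, had a value of 0.47 (SE 0.17; adjusted p = 0.253) and of 0.51 without these mice.

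Genes of regulators gave no call and no unadjusted p below 0.05 in either direction among 12 of 15 tested, and their median log2 fold change was -0.10. Hnf4a, a factor that keeps many hepatocyte genes active, had a log2 fold change of 0.01 (SE 0.17). Stat3 had 43.2 to 59.3 CPM in Apoe-/- mice and 102 and 105 CPM in mice 4 and 6, with a log2 fold change of 0.36 (adjusted p = 0.430), -0.03 without them. Cebpb had 37.5 to 59.0 CPM and, in these 2 mice, 103 and 98.0 CPM, with a log2 fold change of 0.43 (adjusted p = 0.402), 0.11 without them. Transcript levels of these factors say nothing of their activity.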

How the data were processed

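Prime-seq counts came from 28 liver libraries, 2 for each of 14 mice (7 per group, taken from the sample titles). The authors made whole-number counts per gene symbol with the zUMIs pipeline, and mm10 is the build in the submitters' processing notes. The deposited counts are not normalized. The aligner settings, annotation release, strand use and counting of introns are not given in the sources used here. Tags with an identical sequence in near copies, such as Kng1 and Kng2, C4b and C4a, C1ra and C1rb or C1s1 and C1s2, may be split or lost, and 16 of the 43 genes overlap another annotated gene. Molecular identifiers remove PCR copies, so counts approximate molecules, and 3' tags make levels of different genes not comparable per length.

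Libraries of a mouse were summed (541651 to 1531192 counts each). Over the 43 genes their difference was 0.812 to 1.73 times counting error (chi-square per degree of freedom). It was below counting error in double knockout mouse 4 alone (0.812). Both libraries came from the same animal, so mice, not libraries, were the replicates. Genes were kept by filterByExpr, scaled by TMM and compared in edgeR with quasi-likelihood F tests (two-sided, Benjamini-Hochberg over 9684 genes, call at adjusted p below 0.05). Fold changes are as fitted, with SE from the F statistic, and CPM use TMM-scaled totals. The common biological coefficient of variation was 0.238. The study adjusted for RNA integrity, whose values were not used here. No batch is given in the labels. The edgeR p-values set the difference between groups against the spread between mice. Correlations used log2 CPM with a prior count of 2 and permutation tests (exact for 7 mice, 100000 resamples for 12). They had been planned over 14 mice and are given over 12, since double knockout mice 4 and 6 formed a cluster of their own. The scripts were tested on simulated data.

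The 43 genes and all lists were chosen with earlier results of these data known, so no list was tested as a set. Values by mouse are given for genes with an unadjusted p below 0.05, the fibrinogen chains and the 3 genes of each role with the most counts, and of each other list up to 3 genes with the smallest p. Some genes that this rule names are not reported here. C1qa, C1qb, C1qc, Hnf4a, Stat3, Cebpb, Cps1, Clec4g, Fcgr2b and Lyve1 and the genes given by their range alone were added after their values were seen. So were Alb, Apoa2 and Cyp3a11. Alternatives were RLE or library-total scaling, no filter, the study's gene filter, DESeq2, each library alone, a replicate block, each mouse left out, and, chosen after seeing the data, mice 4 and 6 left out. Positions are from GENCODE M21 and promoters from RefSeq (GRCm38.p6), matched by symbol. The software was edgeR 4.0.16 and DESeq2 1.42.0 under R 4.3.3, with scipy 1.17.1 and matplotlib 3.10.9 under Python 3.11.15. Of the marker lists, 1 hepatocyte and 1 platelet symbol were not analysed here.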

Additional observations from a re-analysis of the deposited data

Results flagged for a closer look

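Dixon's test for a single stray value in a group of 7 mice was run on 86 groups (43 genes in 2 genotypes) and marked 7, where chance marks about 1 in 20. In Apoe-/- mice, mouse 3 was low in Mbl1 (105.5 CPM) and in Pros1 (14.1 CPM) and high in F11 (33.8 CPM), mouse 6 was high in C2 (42.2 CPM), mouse 4 was high in F5 (415 CPM) and mouse 2 was low in F7 (41.4 CPM). In double knockout mice, mouse 5 was low in F11 (8.12 CPM). Double knockout mice 4 and 6 were marked in none of the 43 genes, as the test sees a single stray value and not a pair.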

How the results depend on the processing

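The count of genes called, 0 in the main analysis, became 9 without a filter on low counts (2 complement, 5 clotting, 2 Itih and Ahsg genes: Itih3, Itih4, Cpb2, Hc, Fga, C8b, F7, Fgb and Fgg, with 8 other pathway genes and 344 genes in all) and 3 with DESeq2 (Itih4, Hc and Fgg, 1 of each role, with 1 other pathway gene and 68 genes in all). Leaving out each mouse in turn gave 0 to 3 calls (0 to 1 in each role and 0 to 1 other pathway genes). The 3 were Itih4, Hc and Fgg without double knockout mouse 2, a fit that called 118 of all 9950 genes tested, beside 21 of 9684 in the main analysis. Without double knockout mouse 3, 0 of the 43 and 1 other pathway gene were called, with 29 genes in all. Genes higher at an unadjusted p below 0.05, 21 in the main analysis, were 12 to 26 with each mouse left out (12 without double knockout mouse 6), 10 with library totals alone and 4 without double knockout mice 4 and 6. Over all genes the same count was 714 in the main analysis (532 lower), 547 to 1040 with each mouse left out (609 without double knockout mouse 6), 240 with library totals alone (1061 lower) and 558 without mice 4 and 6. RLE scaling, the study's gene filter and each library alone gave 0 calls among the 43 (23, 28, and 11 and 15 genes in all).

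With library totals alone, the median of all genes shifted to -0.10, 36 of 43 genes stayed positive, and small log2 fold changes turned to -0.085 for Masp1, -0.099 for F5, -0.013 for F12, -0.068 for Klkb1 and -0.103 for Pros1. In the libraries not titled as duplicates Klkb1 was -0.046 and Pros1 -0.024, and in those titled as duplicates Masp1 was -0.075, F5 -0.041, F9 -0.133 and Pros1 -0.026. Without double knockout mice 4 and 6, Mbl1 was -0.099, Masp1 -0.032, C8a -0.092, C8g -0.020, C9 -0.289, C4bp -0.032, F5 -0.014, F9 -0.139, F12 -0.077 and Pros1 -0.219. With each mouse left out in turn, the range was -0.033 to 0.088 for F5, -0.034 to 0.10 for Klkb1, -0.0097 to 0.077 for Masp1, -0.16 to 0.13 for C6, -0.075 to 0.11 for Pros1, -0.067 to 0.23 for C9 and -0.042 to 0.18 for F9.

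Equal mouse numbers do not pair the groups. Over 4445 genes the correlation of deviations was -0.43 to 0.15, above 0.1 in 2 of 7 pairs, and 2 of 14 mice matched best with their own number. With the replicate block, 0 of the 43 genes were called, beside 14 of all 9684 tested. At an unadjusted p below 0.05, 18 of the 43 were higher, beside 494 of all tested genes. The log2 fold change of C6 was 0.022 in place of -0.036.

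Relations with the acute-phase genes passed for 29 of 43 genes over all 14 mice, for 0 over the 12 others and for 1 gene after centring within groups. The calls over 14 mice therefore depended on mice 4 and 6. Genes outside the 43 were not tested this way, so whether these counts exceed those of all genes is not known. Over the 12, r changed when the 2 mice farthest from the median were left out (0.05 to 0.66 in Fga, 0.45 to -0.52 in F11). The count of 0 thus does not show that no relation exists there. Correlations among fibrinogen chains stayed past the threshold in each alternative. The causes of these shifts were not tested. With 7 mice per group and 2 mice far from the rest, the SE of a log2 fold change reached 0.32 (Itih4), and F11 and Pros1, with 13 to 80 counts per mouse, carry the most counting error.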
